A study of Mus musculus with 6 samples.

Results

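The IRF and STAT transcription factors examined here are 9 genes of the mouse interferon response, Irf1, Irf2, Irf3, Irf5, Irf7, Irf8, Irf9, Stat2 and Stat3. They were taken by name, as every probe of the deposited intensity table whose target is one of these genes, which gave 18 of the 45281 probes and 9 of the 30854 target names. The series compared cancer-associated fibroblasts, the stromal fibroblasts of a carcinoma, kept briefly in explant culture after removal from a pancreatic tumour of the KPC-Brca1 mouse, which develops pancreatic carcinoma. Of 6 plates, 3 were treated with 2 micromolar decitabine (5-aza-dC, DAC) for 48 hours and 3 were left untreated, and RNA of each plate was read on an Illumina bead array. DAC is a deoxycytidine analogue that traps DNA methyltransferases on DNA. All plates come from 1 explant culture, so a p-value here covers differences among plates and not among tumours or mice. The labels give no age, sex or allele beyond the name KPC-Brca1.

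Interferon regulatory factors (IRFs) bind DNA through a winged helix with conserved tryptophans, and STATs are latent factors that Janus kinases phosphorylate at cytokine receptors. Sensors of viral nucleic acid activate IRF3 and IRF7, which switch on interferon genes. Secreted type I interferon then makes STAT2 and IRF9 join a further STAT in the complex ISGF3, which binds the interferon-stimulated response element (ISRE) of target genes. Interferon gamma and cytokines of the interleukin-6 family act through STAT dimers on the gamma-activated site (GAS). Irf1, Irf5, Irf7, Irf8, Irf9 and Stat2 were grouped as interferon-induced, since interferon is known to raise their transcripts, and Irf2, Irf3 and Stat3 as constitutive. The assignment of Irf5 and of Irf2 is the least certain.

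The sequences before the annotated starts show what these genes hold of both elements and of CpG, the dinucleotide that DNA methyltransferases modify. RefSeq (GRCm38.p6) gave 12 promoter windows of 300 bases for the 9 genes, each from 250 bases before a start to 50 after it. For the ISRE the letters searched were GAAA, any 2 bases and GAAA, and for the GAS they were TTCNNNGAA, on both strands; a match of one may overlap a match of the other. The ISRE letters were in 2 of the 12 windows, against 3.44% of the 32851 windows of all genes, and the GAS letters in 3 of 12, against 8.3% of all windows. The 3 genes printed next were chosen because they hold a match and were detected on the arrays. The bases upstream of the start are given 5′ to 3′ with the matches in capitals: an ISRE match for Stat2 (chr10:128270248-128270497, plus strand), a GAS match for the upstream start of Irf1 (chr11:53769764-53770013, plus strand), and an ISRE match followed by a GAS match for Irf2 (chr8:46739495-46739744, plus strand).
Stat2: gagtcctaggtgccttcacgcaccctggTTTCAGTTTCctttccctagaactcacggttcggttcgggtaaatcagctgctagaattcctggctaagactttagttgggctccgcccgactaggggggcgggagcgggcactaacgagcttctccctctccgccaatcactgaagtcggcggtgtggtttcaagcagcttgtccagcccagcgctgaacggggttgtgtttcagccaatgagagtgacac
Irf1: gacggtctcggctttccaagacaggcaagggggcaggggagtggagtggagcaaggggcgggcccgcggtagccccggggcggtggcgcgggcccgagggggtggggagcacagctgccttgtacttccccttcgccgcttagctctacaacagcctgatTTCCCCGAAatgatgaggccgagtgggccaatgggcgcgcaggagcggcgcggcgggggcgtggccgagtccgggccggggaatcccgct
Irf2: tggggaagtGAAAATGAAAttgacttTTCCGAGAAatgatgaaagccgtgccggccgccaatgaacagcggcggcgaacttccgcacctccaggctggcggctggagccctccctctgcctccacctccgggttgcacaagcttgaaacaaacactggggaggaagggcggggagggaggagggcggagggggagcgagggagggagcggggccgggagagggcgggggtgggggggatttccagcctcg
The ISRE letters lay at bases -222 to -213 in Stat2 and -241 to -232 in Irf2, counted from the annotated start. The GAS letters lay at -90 to -82 in Irf1 and -224 to -216 in Irf2. Irf8 held 2 GAS matches in its first window, at -171 to -163 and at -153 to -145. The windows of Irf3, Irf5, Irf7, Irf9 and Stat3 held neither pattern. A match of letters is a description and shows no binding, and other forms of both elements, or sites outside the windows, were not searched.

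The windows also differed in CpG. Over all genes a window held a median of 7 CpG (quartiles 3 and 20). The 250 bases before the start are printed for Irf7 (chr7:141266425-141266674, minus strand), the gene with the largest rise, and for Irf5 (chr6:29526375-29526624, plus strand), the gene that fell, with every CpG in capitals.
Irf7: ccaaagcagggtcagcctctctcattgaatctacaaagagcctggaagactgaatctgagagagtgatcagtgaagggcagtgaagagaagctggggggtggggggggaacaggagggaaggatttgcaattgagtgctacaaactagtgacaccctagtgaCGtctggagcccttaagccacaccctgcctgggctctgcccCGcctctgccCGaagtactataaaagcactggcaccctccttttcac
Irf5: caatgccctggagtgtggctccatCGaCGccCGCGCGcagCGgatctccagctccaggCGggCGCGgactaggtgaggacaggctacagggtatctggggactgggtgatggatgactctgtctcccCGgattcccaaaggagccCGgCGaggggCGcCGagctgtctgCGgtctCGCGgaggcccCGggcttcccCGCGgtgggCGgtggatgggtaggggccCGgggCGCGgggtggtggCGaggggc
Irf7 had 3 CpG in this stretch and 7 in its whole window, while Irf5 had 25 and 35. The annotated span of Irf5 begins at 29526130, so its printed stretch lies within the gene, before a later start. That of Irf7 ends at 141266499 on the minus strand, so part of its stretch lies within the gene too. The other interferon-induced genes spread over the whole range, with 9 and 1 CpG in both windows of Irf9, 22 in the window of Stat2, 32 and 43 in those of Irf1, and 38 and 8 in those of Irf8. The constitutive genes had 19 (Irf2), 18 (Irf3) and 15 (Stat3). DNA methylation was not measured.

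**Figure D1:**
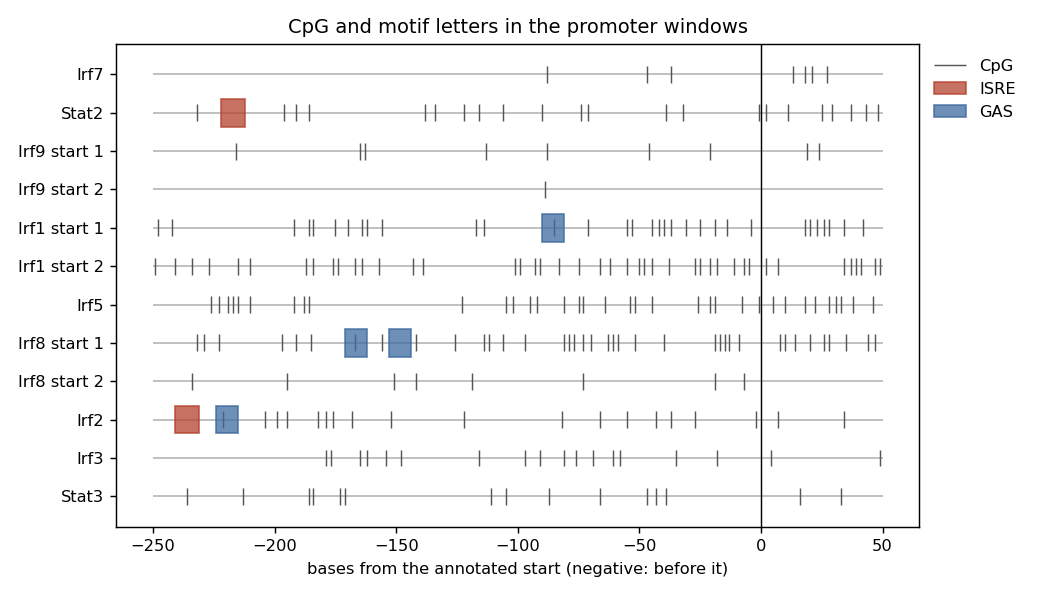
Promoter windows of the 9 genes, from 250 bases before to 50 after each annotated start (horizontal axis, bases), 1 line per window. Grey ticks are CpG, red boxes ISRE letters and blue boxes GAS letters, and Irf7 shows 7 ticks where Irf5 shows 35.

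Of the 9 genes, 8 passed the detection filter (detection p under 0.01 on at least 3 arrays) and Irf8 did not. With DAC, 5 of the 8 rose and 1 fell past the threshold, an adjusted p of 0.05 (limma, with Benjamini-Hochberg adjustment over the 11518 genes tested). Of all genes tested, 29.5% passed the same threshold, 14.8% higher with DAC and 14.6% lower. The genes that rose were Irf7, Stat2, Irf9, Irf1 and, close to the threshold, Irf2. Irf5 fell, and Irf3 and Stat3 did not pass. The normalized values of the groups did not overlap for the same 6 genes, 5 higher and 1 lower, while 42.8% of all genes tested had no overlap, 21.7% higher and 21.1% lower. The split of all calls depended on the scaling between arrays, with 1708 genes higher and 1686 lower after quantile normalization, 977 and 2711 without normalization and 2335 and 1352 after 75th percentile scaling.

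**Figure D2:**
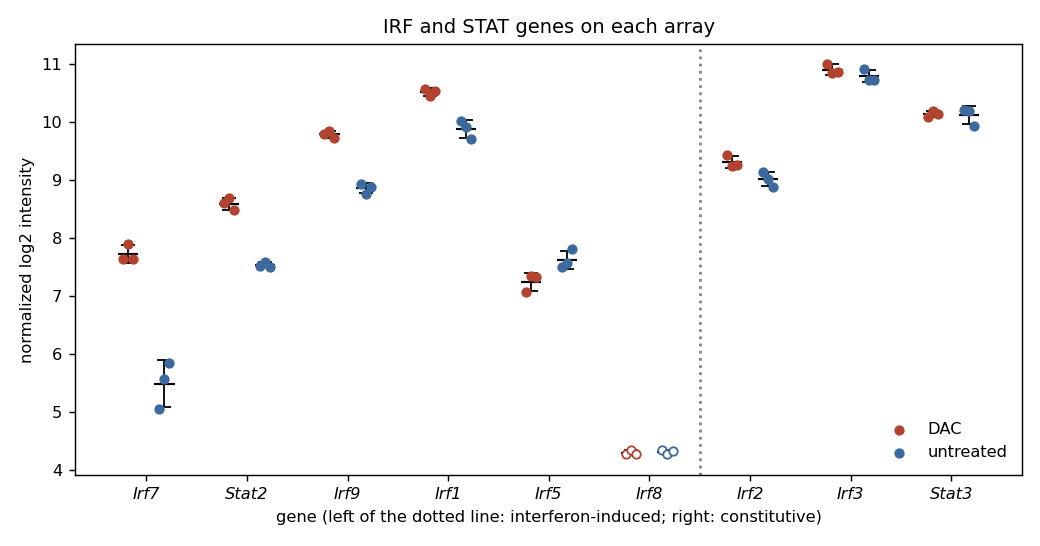
Normalized log2 intensity (vertical axis) of each gene's brightest kept probe on the 3 DAC arrays (red, left) and the 3 untreated arrays (blue, right), with the mean and SD as black bars. Open symbols mark Irf8, which was below detection on all 6 arrays. The groups do not overlap for Irf7, Stat2, Irf9, Irf1, Irf5 and Irf2.

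Irf7, the factor that amplifies type I interferon production, moved most. Its single probe had deposited bead intensities of 194.3, 261.5 and 212.9 on the DAC arrays, against 58.5, 69.9 and 81.8 on the untreated arrays. Every DAC array was well above every untreated array. The untreated values lay near background, with a detection p of 0.00855 on the array of replicate 1 and 0 on the others. After background correction and normalization, the log2 intensity was 7.72 ± 0.15 with DAC and 5.48 ± 0.40 untreated (SD, n = 3 each), a log2 change of 2.24 ± 0.16 (SE; adjusted p = 8.39e-08). This is 4.72-fold higher, with a 95% confidence interval of 3.73 to 5.98. The size depended on the background correction, since the log2 change was 1.59 without it and 1.63 with a larger offset of 50. By log2 change Irf7 was the 38th highest of the 11518 genes.

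Stat2 and Irf9, which work together in ISGF3, both rose. Stat2, the subunit that carries the transactivating domain, had intensities of 361.4, 435 and 368.8 on the DAC arrays, against 220.9, 220.2 and 215.2 on the untreated arrays. The untreated arrays lay within a few units of each other, and all DAC arrays were above them. On the log2 scale Stat2 stood at 8.59 ± 0.10 with DAC and 7.54 ± 0.04 untreated, 2.07-fold higher (95% interval 1.79 to 2.40; adjusted p = 1.6e-06). Irf9, the subunit that contacts the ISRE, was read by 2 probes. The brighter gave 815.7, 964.6 and 859.3 on the DAC arrays, against 540, 472.6 and 512.2 on the untreated arrays. The dimmer gave 296.7, 248.5 and 312.3 on the DAC arrays, against 215.5, 177.2 and 200.1 on the untreated arrays. Neither probe showed overlap between the groups, and both passed the test over all probes (log2 changes of 0.93 and 0.74, adjusted p = 1.09e-05 and 0.000802 over the 16883 probes tested). By the brighter probe Irf9 was 1.90-fold higher (95% interval 1.64 to 2.20; adjusted p = 5.37e-06 over genes).

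Irf1, a tumour suppressor and activator of antigen presentation genes that interferon gamma induces, rose less, and its 5 probes did not show the same size of change. The brightest probe gave 1399.6, 1475.4 and 1526.2 on the DAC arrays, against 1122.6, 1016.6 and 881.5 on the untreated arrays, without overlap. Its log2 change was 0.64 ± 0.11 (SE), 1.56-fold higher (95% interval 1.33 to 1.82; adjusted p = 0.000358). The second probe gave 517.8, 650.5 and 559.1 with DAC, against 471.4, 410.4 and 550.7 untreated, so that the groups overlapped in deposited intensity. It passed over all probes after normalization with a log2 change of 0.41 (adjusted p = 0.0217), a call lost without DAC replicate 2 (adjusted p = 0.0643), untreated replicate 1 (0.0539) or untreated replicate 2 (0.101), without normalization between arrays (0.106) and without the filter on dim probes (0.0998). Of the remaining 3 probes, the dimmest gave 60.3, 59.1 and 54.8 with DAC, against 54, 55.1 and 58.9 untreated, and all 3 overlapped between the groups in deposited intensity. They had log2 changes of 0.13, 0.17 and, for the dimmest, 0.24, and did not pass (adjusted p = 0.397, 0.214 and 0.154). With the mean of all 5 probes in place of the brightest, the log2 change of Irf1 was 0.32 (adjusted p = 0.0168).

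Whether the probes of Irf1 changed unequally was tested within arrays, on the ratio of the brightest probe to the mean of the gene's other kept probes. This test was added after the probe values had been seen. The log2 ratio was 3.30, 3.20 and 3.32 on the DAC arrays, against 3.06, 3.02 and 2.55 on the untreated arrays. The change in log2 ratio was 0.40 (95% interval 0.08 to 0.71), which did not pass over the 3761 genes with more than 1 kept probe (adjusted p = 0.13), of which 4.81% did. It passed without background correction (adjusted p = 0.0329) and with an offset of 50 (adjusted p = 0.0358). The same ratio changed by 0.18 for Irf9, 0.14 for Irf3 and 0.06 for Stat3, with adjusted p = 0.526, 0.597 and 0.823. The files do not give the probes' positions in the transcripts.

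Irf5, a factor downstream of Toll-like receptors that drives inflammatory cytokines in macrophages, went the other way. Its probe gave 137.3, 183.8 and 176.4 on the DAC arrays, against 216.9, 217.7 and 256.6 on the untreated arrays. All DAC arrays lay below all untreated arrays, and DAC replicate 1 was the lowest. The log2 intensity was 7.24 ± 0.15 with DAC and 7.62 ± 0.16 untreated, 1.30-fold lower (log2 change -0.38, 95% interval -0.62 to -0.14; adjusted p = 0.0211). The call was lost without DAC replicate 1 (log2 change -0.29, adjusted p = 0.102), without untreated replicate 3 (-0.29, adjusted p = 0.0977) and when dim probes were not filtered out (adjusted p = 0.0817).

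Irf8, a factor of macrophage and dendritic cell development, stayed at background. Its probe gave 34.4, 38.1 and 34.4 on the DAC arrays, against 39.6, 35.3 and 36.9 on the untreated arrays, with detection p between 0.348 and 0.66. No fold is given, since both groups are below detection, and a reading at background leaves the presence of the transcript undecided.

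The constitutive genes moved little. Irf2, which competes with IRF1 for the same sites and can repress them, gave 633.2, 639.7 and 629.5 on the DAC arrays, against 619.2, 559.4 and 512.4 on the untreated arrays. The groups did not overlap, but the gap between DAC replicate 3 and untreated replicate 1 was narrow. The fit gave a log2 change of 0.29 (95% interval 0.07 to 0.52; 1.23-fold), just past the threshold over genes (adjusted p = 0.0478) and not past it over probes (adjusted p = 0.0552). Its call over genes was lost in 6 of 15 alternatives, 4 of which left out 1 array: DAC replicate 1 (adjusted p = 0.172), DAC replicate 3 (0.0787), untreated replicate 2 (0.103) and untreated replicate 3 (0.167).

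Irf3, the sensor-activated factor that cells hold ready in the cytoplasm, gave 1889.3, 1946 and 1902.7 with its brightest probe on the DAC arrays, against 2007, 1748 and 1702.3 on the untreated arrays. The groups overlapped, and the log2 change was 0.11 (95% interval -0.11 to 0.33; adjusted p = 0.441). Its other probes had log2 changes of -0.13 and 0.07, neither past the threshold. The brightest probe of Stat3, the main factor of interleukin-6 signalling, gave 997.6, 1217.7 and 1138.8 with DAC, against 1273, 1235.1 and 1011.5 untreated. These values overlapped as well, with a log2 change of 0.03 (95% interval -0.20 to 0.25; adjusted p = 0.881), and the other Stat3 probes had changes of 0.05 and -0.12. The direction of the Stat3 value flipped without normalization between arrays (-0.067). As ratios of DAC over untreated, the intervals leave room for 0.93 to 1.26 for Irf3 and 0.87 to 1.19 for Stat3.

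**Figure D3:**
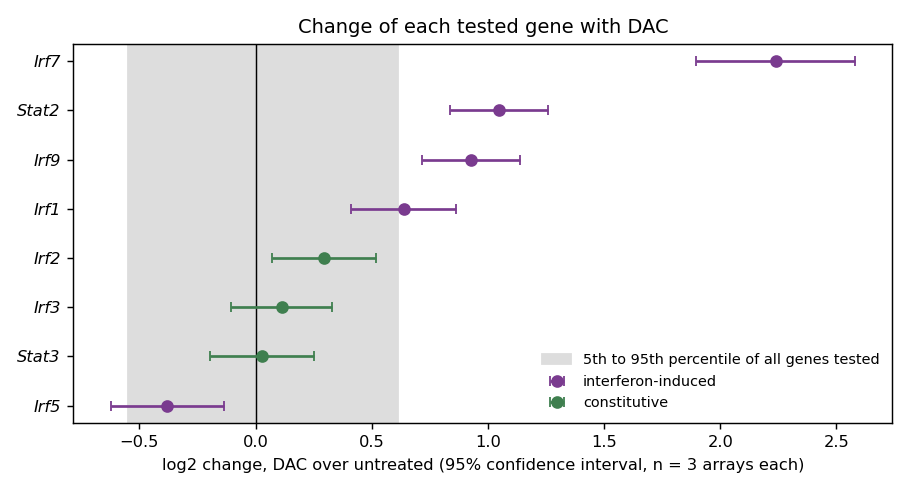
Log2 change with DAC over untreated (horizontal axis) of the 8 tested genes, with 95% confidence intervals from limma (n = 3 arrays per group). The grey band spans the 5th to 95th percentile of all 11518 genes tested, -0.55 to 0.62, and the points of Irf7, Stat2, Irf9 and Irf1 lie beyond its upper edge.

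Set side by side, the 5 tested interferon-induced genes had 4 members higher and 1 lower, with a median log2 change of 0.93 and a range of -0.38 to 2.24. The 3 constitutive genes had 1 member higher and none lower, with a median of 0.11 and a range of 0.03 to 0.29. The median over all genes tested was 0.003. Averaged over its genes and set against the untreated mean, the interferon-induced class stood at 0.86, 0.96 and 0.86 on the DAC arrays (log2) and between -0.07 and 0.07 on the untreated arrays. The constitutive class stood at 0.20, 0.12 and 0.11 on the DAC arrays and between -0.12 and 0.11 on the untreated arrays. The DAC and untreated arrays were thus apart for the first class, while for the second DAC replicate 3 lay below untreated replicate 1. The class difference was not tested, because the genes were chosen and sorted with earlier results known. With Irf5 counted as constitutive, the medians were 0.99 and 0.07.

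Over single probes, 6 of the 17 kept probes rose (2 of Irf1, 2 of Irf9, and those of Irf7 and Stat2), 1 fell (Irf5) and 10 did not pass. Of all probes tested, 13.1% rose and 14.5% fell. Each probe value rests on 20 to 58 beads, and the bead standard error was 2.88% to 8.03% of the intensity for the kept probes.

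**Figure D4:**
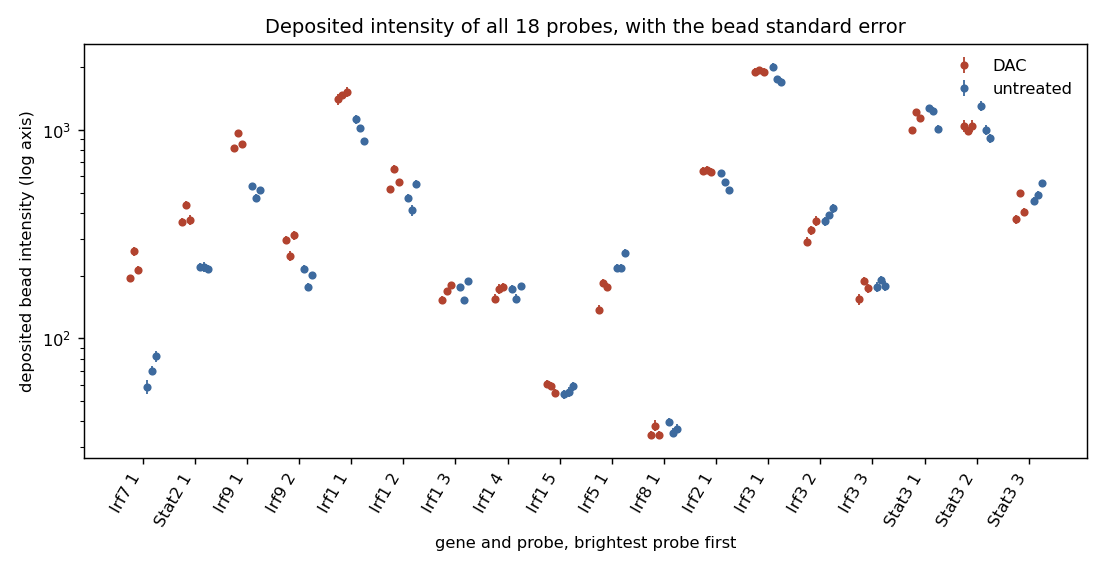
Deposited bead intensity (vertical axis, log scale) of all 18 probes on the DAC arrays (red, left) and untreated arrays (blue, right), with the bead standard error as bars that are often smaller than the point. The probes of Irf7, Stat2, Irf9 and the brightest of Irf1 are separate between the groups, and those of Irf3 and Stat3 overlap.

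Further genes of the same families were on the array. Stat5a, a factor of growth hormone and prolactin signalling, had a log2 change of -0.18 (adjusted p = 0.294), and Stat6, the factor of interleukin-4 signalling, of 0.08 (adjusted p = 0.62). Irf4, Stat4 and Stat5b were detected on no array.

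The counts for the lists of pathway genes are to be read against the 14.8% of all genes that rose and the 14.6% that fell. Of 21 genes that act upstream of IRF3, IRF5 and IRF7 (the list of activators), 18 were tested, 2 rose and 1 fell. These shares are not above those of all genes, and the median log2 change was 0.02. The counts were 2 and 3 without normalization between arrays, 4 and 1 with 75th percentile scaling, and 2 and 0 without the filter on dim probes. With the mean of a gene's probes they were 3 and 0, and with 1 array left out the number that fell was 0 without DAC replicate 1 or untreated replicate 3 and 2 without DAC replicate 3. Both genes that rose encode RNA sensors of the RIG-I family that are themselves interferon-induced. Of these, Dhx58 stood at 7.97 ± 0.20 with DAC and 5.95 ± 0.17 untreated (4.07-fold higher, adjusted p = 1.41e-08), and Ddx58 was 2.31-fold higher. The kinase gene Irak1 was 1.32-fold lower by its brightest probe (adjusted p = 0.0236), a call lost without DAC replicate 1, DAC replicate 2 or untreated replicate 3 (adjusted p = 0.095, 0.0626 and 0.11) and without the filter on dim probes (0.116), and with the opposite sign for the mean of its probes (log2 change 0.077, adjusted p = 0.583). The kinases that phosphorylate IRF3 and IRF7 had log2 changes of 0.19 (Tbk1) and -0.01 (Ikbke), neither past the threshold. Of 9 interferon genes, 8 gave no detected probe, Ifnb1 and Ifng included, which leaves the presence of their transcripts undecided. Ifnz had a log2 change of 0.14 (adjusted p = 0.362).

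Of 12 receptor and kinase genes upstream of STATs, 9 were tested, 1 rose and 1 fell, with a median of 0.05. None rose and 3 fell without normalization between arrays, 3 fell without the filter on dim probes and 2 with the mean of a gene's probes. Il6st, the shared receptor chain gp130 of the interleukin-6 family, was 1.37-fold lower (adjusted p = 0.00296). Il6ra, the interleukin-6 receptor, was 1.31-fold higher (adjusted p = 0.00732), a call lost without normalization between arrays (adjusted p = 0.176) and with the mean of its probes (adjusted p = 0.171). The interferon receptor genes Ifnar2, Ifngr1 and Ifngr2 and the kinase genes Jak2 and Tyk2 had log2 changes between -0.21 and 0.15 and did not pass. Ifnar1 and Jak1 were detected on no array.

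Of 23 brakes on IRFs and STATs, 18 were tested, 3 rose and 2 fell, with a median of 0.03. Usp18, which blocks the type I interferon receptor through STAT2, stood at 11.97 ± 0.03 with DAC and 9.20 ± 0.12 untreated (6.81-fold higher, adjusted p = 5.93e-11). Trim21, a ubiquitin ligase of several IRFs, was 2.66-fold higher, and Pdlim2, a nuclear ubiquitin ligase of STATs, 1.28-fold higher (adjusted p = 0.0202). Only 2 brakes rose without normalization between arrays, and 2 to 3 rose with 1 array left out. The calls of Usp18 and Trim21 held in all 15 alternatives, so the call lost was that of Pdlim2. Socs2, a suppressor of cytokine signalling, was 1.54-fold lower, and Irf2bp2, a partner of IRF2, was 1.30-fold lower. Socs3, the inducible brake on STAT3, had a log2 change of 0.10 (adjusted p = 0.454).

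The tested targets of ISGF3 and IRFs rose almost throughout. Of 43 listed genes, 34 were tested, 33 rose and none fell, with a median log2 change of 1.29. No array detected 8 of the 43. Ccl5 was detected on all 3 DAC arrays and on 0 untreated arrays. It passed the filter only through the DAC arrays, so its rise was largely fixed by the filter. Cmpk2 and Oas2 were each detected on all 3 DAC arrays and on 1 untreated array. Both would not have passed the filter without the DAC arrays, so their rise was partly fixed by the filter as well. The count and the median include Ccl5, Cmpk2 and Oas2. Ifit3 stood at 11.64 ± 0.10 with DAC and 9.07 ± 0.06 untreated (5.96-fold higher), Isg15 was 5.62-fold higher and Gbp3 5.40-fold higher. The fitted log2 change of Oas2, 2.70, is set against untreated values mostly at background. It was 1.78 without background correction and 1.83 with an offset of 50. Oas2 was not tested when detection on all 6 arrays was required, and because of the filter its p-value is not given as support. The gene that did not pass was Ifit2 (log2 change 0.30, adjusted p = 0.0662). These genes overlap the interferon-stimulated genes already known to rise here, so their count is no independent evidence.

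The STAT3 targets moved both ways, with more lower than higher. Of 23 listed genes, 18 were tested, 2 rose and 8 fell, with a median of -0.14. Of all genes tested, 14.8% rose and 14.6% fell. Cebpb and Fos, both of which encode transcription factors, were each 1.62-fold lower (adjusted p = 7.49e-05 and 0.000386), and the adhesion gene Icam1 was 1.47-fold lower. The cyclin gene Ccnd1 was 1.78-fold higher (adjusted p = 2.61e-05) and the protease inhibitor gene Timp1 1.40-fold higher. Many of the listed STAT3 targets also respond to other factors.

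**Figure D5:**
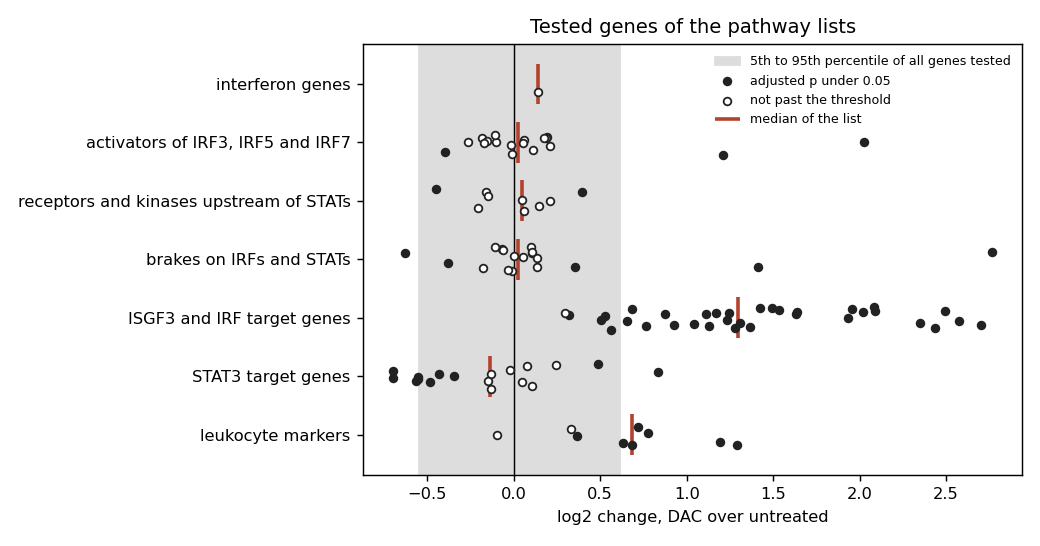
Log2 change with DAC over untreated (horizontal axis) of the tested genes in each list, with called genes filled, others open and the list's median as a red line. The grey band spans the 5th to 95th percentile of all genes tested, and the median of the ISGF3 and IRF targets (1.29) lies to the right of it.

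The genes whose values over the 6 arrays were most like those of Irf7 were Dhx58, Prl2c2, Oas1g, Gstp2 and Phf11d. Likeness was the root-mean-square difference of the centred log2 values, which was 0.18 for Dhx58, 0.20 for Prl2c2, 0.21 for Oas1g, 0.23 for Gstp2 and 0.25 for Phf11d. The measure follows mainly the size of the group difference, with log2 changes of 1.90 to 2.53 for these genes. That of Gstp2, the highest, was 1.88 without background correction.

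Markers of other cells were read beside these results, since Irf5, Irf7 and Irf8 are also leukocyte genes. Of 28 leukocyte markers on the array, 9 were tested, 7 rose and none fell, with a median log2 change of 0.68. The shares over all genes tested were 14.8% higher and 14.6% lower. The summed linear level of the 9 tested markers was 1565 to 1595 on the DAC arrays and 977 to 1048 on the untreated arrays. The 7 that rose were Cd53, Laptm5, Csf1r, Lyz1, Lyz2, Coro1a and Cd68. Laptm5, a lysosomal protein gene of blood cells, was 2.29-fold higher (adjusted p = 5.78e-06), the lysozyme genes Lyz1 and Lyz2 were 1.72-fold and 1.61-fold higher, Coro1a 1.55-fold and Cd68 1.29-fold. Cd53 and Csf1r, the receptor gene for macrophage colony-stimulating factor, were detected on all 3 DAC arrays and on 0 untreated arrays. Both passed the filter only through the DAC arrays, so their rise was largely fixed by the filter. They are included in the 7 that rose, in the median and in the summed level. Cd14 and Cd3e were detected on all 6 arrays, with log2 changes of -0.095 and 0.33 that did not pass. No array detected 18 of the 28, including the defining genes Ptprc, Spi1, Itgam and Adgre1. Their part in the changes of the IRF and STAT genes was not tested, and more cells of a type and more RNA per cell cannot be told apart in these bulk samples. Of 12 fibroblast markers, 10 were tested, none rose and 3 fell (Lum, Col6a1 and Dcn), with a summed level of 43157 to 46348 with DAC and 46642 to 48702 untreated, while Fap and Postn did not pass the filter. Of 10 epithelial markers, 5 were tested, 1 rose and 1 fell. The keratin genes Krt7, Krt8, Krt18 and Krt19 were detected on all 6 arrays. Krt7 was 1.72-fold higher (adjusted p = 5.27e-05) and Krt19 2.30-fold lower (adjusted p = 9.76e-06), while Krt8 and Krt18 had log2 changes of 0.085 and -0.26 that did not pass. Epcam and Cdh1 were detected on no array. The summed level of the epithelial markers was 1353 to 1547 with DAC and 1462 to 1650 untreated, and their part in the changes was not tested either. All 7 endothelial markers were detected on no array. The arrays had 16205 to 16528 probes detected with DAC and 16254 to 17180 untreated, and arrays of different groups correlated at 0.974 to 0.980 over kept probes, against at least 0.993 within a group.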

How the data were processed

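The deposited table gave, per the file headers, a mean bead intensity for each probe and array on a linear scale, not normalized, with the signal error (the standard error over beads), the count of beads and a detection p-value. A second deposited table of processed intensity carries probe identifiers that could not be matched to genes, and served only for counts of probes. Per the labels, Trizol RNA was made into biotinylated cRNA with an Ambion kit. The sources used here name no scanner software or genome build.

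Background was corrected by normexp from the detection p-values with an offset of 16, and log2 values were quantile normalized (limma 3.58.1, R 4.3.3). Probes detected (p under 0.01) on at least 3 of the 6 arrays were kept (16883), and each of the 11518 genes tested was represented by its brightest kept probe. Target names were updated through RefSeq (GRCm38.p6), which named 81% of probes. DAC and untreated arrays were compared with lmFit and eBayes, adjusted by Benjamini-Hochberg over all genes, or over all probes for single probes, and called at an adjusted p under 0.05. Lists are given by counts and medians, without a set test.

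The named genes are all members with all their probes, up to 4 called genes of each pathway list with the smallest p, further family members, and the 5 genes most like the called member with the largest change, passing over predicted and clone names. Genes cited below the threshold or undetected, and Timp1, Pdlim2, Ccl5, Cmpk2 and the cell type markers, were picked with their values in view. The members and lists were chosen with earlier results of these data known. Some genes of the fixed lists are not reported here. Array number limits the precision. No scan date or slide is given, so batches could not be examined. The replicate numbers of both groups coincide. Deviations of same-numbered arrays correlated at 0.32, 0.28 and -0.03, and those of different-numbered arrays at -0.40 to 0.16. These values do not settle whether the arrays are pairs. The main fit did not treat them as pairs, and a replicate block was run as an alternative. Alternatives covered background, offset, scaling, filter, variance model, replicate block, probe choice and each array left out.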

Additional observations from a re-analysis of the deposited data

How the results depend on the processing

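The calls of Irf7, Stat2, Irf9 and Irf1 held under all 15 alternatives run for each, with log2 changes of 1.59 to 2.41, 0.90 to 1.10, 0.82 to 1.00 and 0.32 to 0.74. Those of Irf5 and Irf2 were lost in 3 and 6 of 15, with log2 changes of -0.53 to -0.29 and 0.18 to 0.36. Leaving out 1 array gave 0 to 1 members and 0 to 1 member probes called lower. Without the filter on dim probes both counts were 0 (limma). In each case the member concerned was Irf5, whose unadjusted p was 0.0104 without the filter, 0.0313 without DAC replicate 1 and 0.0295 without untreated replicate 3.

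Without normalization between arrays 977 genes were called higher and 2711 lower, and the median change of all genes was -0.11. The median change of the interferon-induced genes was then 0.82, against 1.00 with 75th percentile scaling, 0.78 without the filter, 0.84 with the mean of a gene's probes and 0.78 with Irf2 counted among them. That of the constitutive genes was 0.26 with 75th percentile scaling and 0.019 with the mean of probes. The sign turned in uncalled values and in Irak1, and the cause was not tested. Without normalization between arrays this held for Stat3 (-0.067; its probes -0.067 and -0.041), Stat6 (-0.087), 1 dim probe of Irf1 (-0.031) and 1 of Irf3 (-0.085). With the mean of probes it held for Stat3 (-0.014) and Irak1 (0.077). With 1 array left out, the log2 change of Stat3 ran from -0.064 to 0.074, its second probe from -0.050 to 0.19 and its probe ratio from -0.026 to 0.13. With the replicate number as a block, 2006 genes were higher and 1977 lower, with 5 members higher and 1 lower as before. The submitters' processed table could not be used for the members.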
